A study of Drosophila melanogaster with 6 samples.

Results

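The piRNA pathway genes described here are 10 genes of the 17612 in the deposited table: piwi, aub, AGO3, vas, spn-E, armi, krimp, tej, qin and zuc. They were measured in leg discs of third-instar Drosophila melanogaster larvae, the epithelial sacs from which the adult legs form. The set was chosen by a rule that used measured values of these libraries, namely that krimp was higher and spn-E lower in Double discs. Every value of the 10 genes in that contrast is therefore given as a description, without a test.

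One genotype is labelled Double, and the series describes it as leg discs with a deletion of a PRE, a Polycomb response element, which is DNA that recruits Polycomb repressors. It was compared with discs labelled WT, wild type. The labels give neither the deleted elements nor the strain background, and they do not say whether replicates came from separate crosses. Each genotype has 3 poly-A RNA libraries, each from a pool of 20 discs, with 10025174 to 11772621 counts in Double and 8818943 to 13605668 counts in WT. The p-values for other genes below thus rest on the variation among these 6 libraries, which may be technical in part.

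PIWI-interacting RNAs (piRNAs) are small RNAs that guide PIWI-clade Argonaute proteins to transposon transcripts. Precursors are cut at the outer mitochondrial membrane, and in germ cells the sequences are amplified in the nuage, a cloud of RNA and protein around the nucleus, where one PIWI protein cuts the RNA that loads the next. Piwi itself enters the nucleus and silences transposons at the level of transcription. The pathway is known from the ovary and testis, and several of its genes are held at a low level in somatic epithelia such as discs.

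Of the 10 genes, 9 were weakly expressed in both genotypes, and the level of armi could not be read from these counts. In Double discs krimp, AGO3 and vas were higher in all 3 libraries than in any WT library, and spn-E and piwi were lower in all 3. Counts of qin and zuc differed between the genotypes by less than the spread between replicates. aub and tej were close to the detection limit in both genotypes, as were piwi in Double and AGO3 and vas in WT. Separation of the 3 libraries of each genotype was not rare: of the 8802 genes with enough counts to be tested, 10.3% had all Double libraries above all WT libraries and 9.11% had all of them below.

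**Figure D1:**
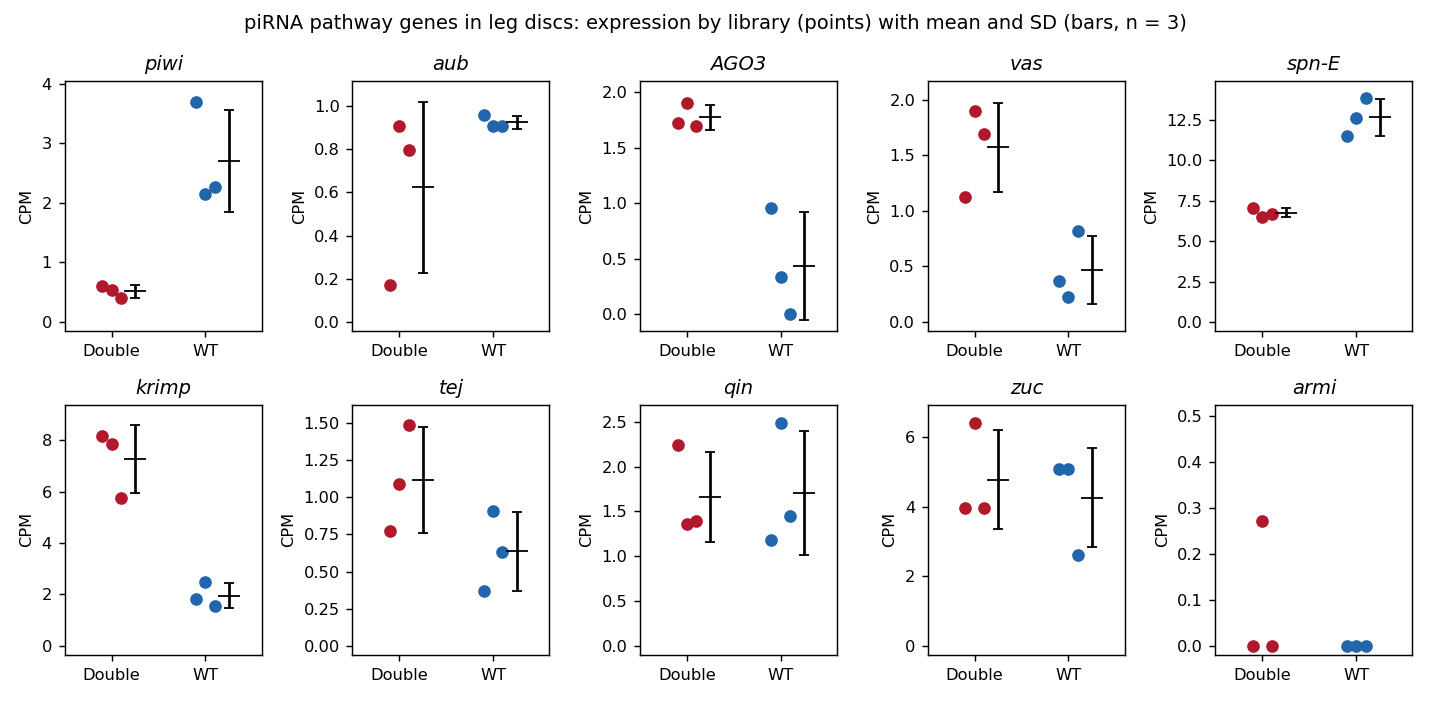
Expression of the 10 genes in each library, in CPM (linear axes, a different scale in each panel). Points are libraries (Double red, WT blue), and bars are the mean and SD of 3 libraries (not drawn for armi). krimp, AGO3 and vas lie higher in Double, spn-E and piwi lie lower, and zuc and qin overlap.

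Among the PIWI proteins, piwi encodes the nuclear member. It had 7, 6 and 4 counts in Double replicates 1, 2 and 3, against 50, 19 and 25 counts in WT replicates 1, 2 and 3. In CPM, which are counts scaled to library size, this was 0.514 ± 0.106 CPM in Double and 2.7 ± 0.857 CPM in WT (SD, n = 3 each), so that Double stood at 19.0% of WT. The log2 fold change was -2.37 (SE 0.47). WT replicate 1 was the highest of the 6 libraries, and the lowest WT library, at 2.15 CPM, was still above the highest Double library at 0.603 CPM. Of the exon bases of piwi 6.2% are shared with SCAR, a gene on the opposite strand, which averaged 102 CPM in Double and 101 CPM in WT.

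AGO3, a cytoplasmic PIWI protein that binds mostly sense piRNAs in the amplification cycle, stood the other way. It had 20, 21 and 17 counts in the Double libraries, against 13, 3 and 0 counts in the WT libraries. The means were 1.77 ± 0.114 CPM in Double and 0.433 ± 0.486 CPM in WT (SD, n = 3 each), a 4.09-fold difference with a log2 fold change of 1.95 (SE 0.86). The Double libraries agreed within a narrow range, whereas the WT libraries were spread from 0 to 0.959 CPM. WT replicate 1 sets the size of this difference: without it the log2 fold change was 3.42, and without WT replicate 3, the library with no AGO3 count, it was 1.38. With the summed fat body markers as a covariate it was 3.17.

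aub encodes the partner of AGO3 in the amplification cycle. Its counts were 2, 10 and 8 in Double and 13, 8 and 10 in WT, or 0.624 ± 0.395 CPM in Double and 0.923 ± 0.0309 CPM in WT (SD, n = 3 each). The low Double mean came from replicate 1, at 0.172 CPM, while Double replicate 2 reached the same 0.905 CPM as WT replicates 2 and 3. Of the exon bases of aub 2.6% are shared with TTLL4A on the opposite strand, which had 2335 counts over the Double libraries and 2275 over the WT libraries. Per kilobase of annotated exon, the scale on which genes can be compared with each other, AGO3 was the highest of the 3 PIWI genes in each Double library, at 0.531 to 0.597 CPM per kb. In each WT library the order was piwi, then aub, then AGO3, with piwi at 0.700 to 1.20 CPM per kb and AGO3 at 0 to 0.301 CPM per kb. In WT replicate 1 aub and AGO3 both had 13 counts, so their order there (0.318 and 0.301 CPM per kb) rests on exon length alone.

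Of the RNA helicases, spn-E (spindle-E, FBgn0003483) encodes a nuage protein with a helicase and a Tudor domain that is needed for amplification of piRNAs. It lies on the plus strand of chromosome arm 3R at 15837419 to 15844415 (dm6). It had 82, 72 and 67 counts in Double, against 156, 111 and 153 counts in WT, and was the most abundant of the 10 genes by count in WT. The means were 6.74 ± 0.283 CPM in Double and 12.6 ± 1.18 CPM in WT (SD, n = 3 each). Double thus stood at 53.4% of WT, a log2 fold change of -0.90 (SE 0.15). The 3 Double libraries lay within 6.51 to 7.06 CPM, and the lowest WT library read 11.5 CPM.

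vas (vasa) encodes the DEAD-box helicase that builds the nuage and marks germ cells in many animals. The counts of vas were 13, 21 and 17 in Double and 5, 2 and 9 in WT. It averaged 1.57 ± 0.404 CPM in Double and 0.470 ± 0.307 CPM in WT (SD, n = 3 each), a 3.34-fold difference with a log2 fold change of 1.70 (SE 0.61). The lowest Double library read 1.12 CPM and the highest WT library, replicate 3, read 0.815 CPM. Without WT replicate 3 the log2 fold change was 2.31. Of the exon bases of vas, 24.6% are shared with solo, a gene transcribed from the same strand, and solo had 7 counts over the Double libraries and 2 over the WT libraries.

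armi (Armitage) encodes the helicase that hands precursors to the nuclease Zucchini. The table lists 0, 3 and 0 counts in Double and 0 in each WT library. In the annotation 99.6% of the exon bases of armi also belong to CG46463, a gene on the same strand, which had 0 counts in all 6 libraries. Reads from that stretch cannot be assigned to 1 of these genes, and the sources used here do not say how they were counted. No level of armi was therefore derived.

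The Tudor domain proteins bind methylated arginines of the PIWI proteins and hold the nuage together. krimp (krimper, FBgn0034098), whose product brings Aub and AGO3 together, lies on the minus strand of 2R at 16238103 to 16240722 (dm6). It had 95, 87 and 58 counts in Double, against 25, 22 and 17 counts in WT. The means were 7.27 ± 1.31 CPM in Double and 1.96 ± 0.485 CPM in WT (SD, n = 3 each), a 3.72-fold difference with a log2 fold change of 1.90 (SE 0.31). Double replicate 3 was the lowest of its group at 5.76 CPM, more than any WT library, the highest of which read 2.49 CPM. No other annotated gene overlaps krimp.

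tej (tejas), a Tudor protein that recruits Vasa to the nuage, had 9, 12 and 15 counts in Double and 5, 8 and 7 counts in WT. It averaged 1.12 ± 0.359 CPM in Double and 0.636 ± 0.268 CPM in WT (SD, n = 3 each), and the groups overlapped. qin, which encodes a Tudor and RING domain protein that keeps the amplification cycle between Aub and AGO3, had 26, 15 and 14 counts in Double and 16, 22 and 16 counts in WT. Its log2 fold change was -0.02 (SE 0.48), and its means were 1.66 ± 0.500 CPM in Double and 1.71 ± 0.691 CPM in WT (SD, n = 3 each).

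zuc encodes Zucchini, the mitochondrial nuclease that cuts precursors into piRNAs. It had 46, 71 and 40 counts in Double and 69, 45 and 29 counts in WT. The means of 4.79 ± 1.42 CPM in Double and 4.27 ± 1.42 CPM in WT differed by less than their SD (n = 3 each), with a log2 fold change of 0.17 (SE 0.36). The sign of this value and of that of qin changed when single libraries were left out. Of the exon bases of zuc 5.8% are shared with CG34163 on the opposite strand, which had 712 counts over the Double libraries and 749 over the WT libraries. CG34163 was highest, at 26.1 CPM, in Double replicate 2, where zuc was also highest at 6.42 CPM, and lowest, at 17.6 CPM, in WT replicate 3, where zuc was lowest at 2.62 CPM. The part of these shared bases in the level of zuc was not tested.

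For 7 of the 10 genes counts sufficed for the fit across all genes, while aub, tej and armi stayed below the filter. AGO3 and vas reached it through their Double libraries, with 1 and 0 of 3 WT libraries at the required level, and piwi through its WT libraries alone, with 0 of 3 in Double. Such genes have to differ, so the share that differs among the 7 carries no weight. Since the genes were selected on that contrast, no test result is given for them.

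Set side by side per kilobase, the summed level of the 9 readable genes overlapped between the genotypes, at 10.2, 12.8 and 9.81 CPM per kb in Double and 9.98, 10.2 and 7.81 CPM per kb in WT. The shares of krimp and spn-E in it follow from the choice of the set and are given as a description. krimp supplied 31.4%, 24.2% and 23.1% of the sum in Double replicates 1, 2 and 3, against 7.25%, 9.60% and 7.73% in WT replicates 1, 2 and 3. spn-E supplied 14.8%, 10.9% and 14.5% in Double, against 24.6%, 26.4% and 37.9% in WT. zuc was the largest component in each Double library, at 33.8% to 43.8% of the sum, and in 2 of the 3 WT libraries.

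**Figure D2:**
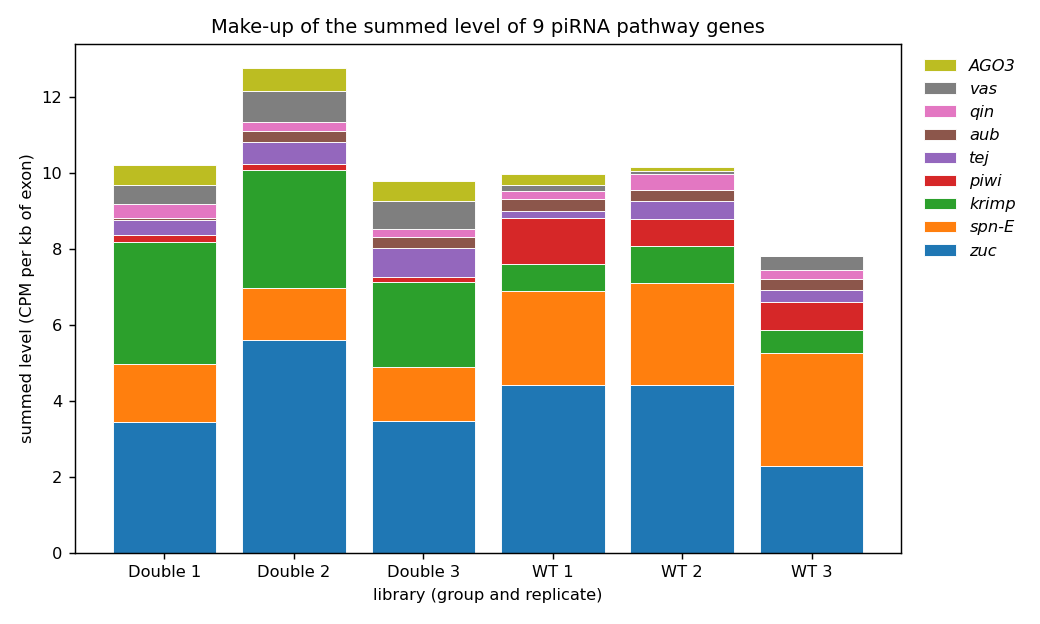
Summed level of 9 piRNA pathway genes (armi left out) in each library, in CPM per kilobase of annotated exon, stacked by gene. The height is 9.81 to 12.8 in Double and 7.81 to 10.2 in WT, while the krimp segment is larger and the spn-E and piwi segments smaller in Double.

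In WT the genes ranked, from high to low per kilobase, as zuc, spn-E, piwi, krimp, tej, aub, qin, vas and AGO3. The ranges of neighbours in this order were apart only between spn-E and piwi and between krimp and tej. In Double the order was zuc, krimp, spn-E, vas, tej, AGO3, qin, aub and piwi, with ranges apart between zuc and krimp, krimp and spn-E, spn-E and vas, and AGO3 and qin. Even zuc, at 4.17 ± 1.23 CPM per kb in Double and 3.72 ± 1.24 CPM per kb in WT (SD, n = 3 each), was higher than only 47.2% of the 13030 genes with a count in Double and 46.6% in WT. AGO3 was higher than 33.3% of them in Double and 19.6% in WT.

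Other genes of the pathway, taken from lists of 46 genes, were mostly expressed at far higher levels. Of the 46, 37 in Double and 38 in WT stood above the highest of the 10 genes per kilobase. None of the 42 with enough counts passed edgeR's quasi-likelihood test at an adjusted p under 0.05, and DESeq2 also gave 0. Of all 8802 tested genes 131, or 1.49%, passed edgeR's test, and DESeq2 called 293. A set of 42 genes cannot tell a count of 0 from such shares. At an unadjusted p under 0.05 stood 2 of the 42, nxf2 and fs(1)Yb, against 1079, or 12.3%, of all tested genes. Of these 2, fs(1)Yb reached the count filter through its Double libraries alone. The median log2 fold change of the 42 was 0.03, beside 0.00 over all tested genes.

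The list of piRNA cluster transcription and export had 9 tested genes of 12, with a median log2 fold change of 0.03 and none at an unadjusted p under 0.05. It holds del (deadlock), a partner of Rhino on dual-strand clusters, at 29.5 CPM in Double and 26.5 CPM in WT (log2 fold change 0.15, SE 0.10), and thoc7, of the THO export complex, at 34.2 CPM in Double and 37.5 CPM in WT (log2 fold change -0.14, SE 0.08). rhi, the Rhino gene itself, averaged 0.177 CPM in Double and 0.217 CPM in WT and could not be tested, and moon and Boot, also germline factors, were likewise too low.

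All 13 genes of Piwi-dependent nuclear silencing were tested, with a median log2 fold change of 0.02. The smallest p was that of nxf2, which encodes an RNA-binding partner of Panoramix, at 36.7 ± 1.91 CPM in Double and 30.6 ± 1.46 CPM in WT (SD, n = 3 each; log2 fold change 0.26, SE 0.08; edgeR adjusted p = 0.2338). egg, which encodes the histone methyltransferase Eggless, had a log2 fold change of 0.17 (SE 0.07; edgeR adjusted p = 0.4201).

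Of 14 genes of biogenesis in Yb bodies and at mitochondria, 13 were tested, with a median log2 fold change of 0.19. The largest log2 fold change among the 42 tested genes was that of fs(1)Yb, which encodes the organiser of Yb bodies in ovarian somatic cells. It had 11, 15 and 14 counts in Double, against 8, 3 and 5 counts in WT, without overlap of the groups in CPM. This gave a log2 difference of 1.37 with an SE of 0.54 (edgeR adjusted p = 0.3559). Like AGO3 and vas, fs(1)Yb reached the count filter through its Double libraries, so this difference carries no weight. daed, whose product tethers the complex to mitochondria, had a log2 fold change of 0.22 (SE 0.12; edgeR adjusted p = 0.5175). The 7 nuage, Tudor and arginine methylation genes had a median of 0.02, and none stood at an unadjusted p under 0.05. Among them vls, a cofactor of arginine methylation, had a log2 fold change of -0.27 (SE 0.12; edgeR adjusted p = 0.4272), and csul, the methyltransferase itself, of 0.17 (SE 0.09; edgeR adjusted p = 0.4861).

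The machinery of the other small RNA classes, siRNAs and miRNAs, is active in somatic cells and served as the nearest comparison. Each of its 10 genes stood above all of the 10 piRNA genes per kilobase, with a median of 22.1 CPM per kb in Double and 24.7 CPM per kb in WT. None passed edgeR's test, where 1.49% of all tested genes did, and 10 genes cannot tell a count of 0 from that share. DESeq2 called 1, AGO2, and 293 of all 8802. At an unadjusted p under 0.05 stood 4 of the 10, where 12.3% of all tested genes did. The log2 fold changes ran from -0.24 to 0.29 with a median of 0.07. AGO2, the Argonaute of the siRNA pathway, read 590 CPM in Double and 496 CPM in WT (log2 fold change 0.25, SE 0.08; edgeR adjusted p = 0.2192). loqs, a partner of Dicer proteins, read 56.1 CPM in Double and 66.2 CPM in WT (log2 fold change -0.24, SE 0.07; edgeR adjusted p = 0.2221).

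**Figure D3:**
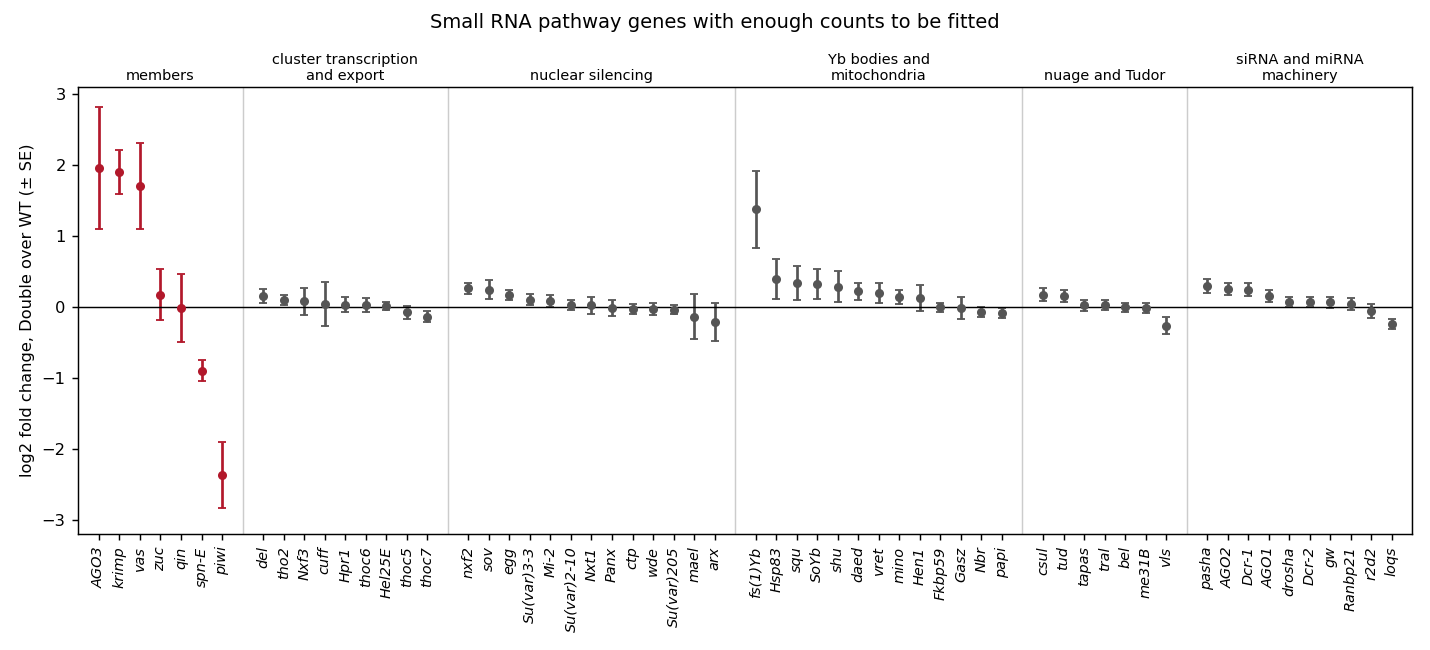
Log2 fold changes (Double over WT, with SE) of the 7 piRNA pathway genes that could be fitted (red) and of the tested genes of 4 further piRNA lists and of the siRNA and miRNA machinery (grey). The red points run from -2.37 to 1.95, and the grey points, apart from fs(1)Yb at 1.37, stay between -0.27 and 0.39.

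Known targets and sources of piRNAs had few or no counts in the table. Of 15 such genes, lncRNA:flam (the transcript of the flamenco cluster) and the Stellate genes, 12 had no count in any library. Summed counts were 3, 4 and 5 in Double and 4, 0 and 2 in WT, and no level was derived from them. The Stellate genes are near-identical copies and flamenco consists of transposon fragments, and no source used here says how reads that match several places were counted. Transposons have no rows of their own in the table and were not analysed here.

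Germ cells lie in the gonads, which are embedded in the fat body, so markers of both were read beside these values. Of the 17 germline markers 8 had fewer than 10 counts in every library. Among these nanos had 0, 0 and 2 counts in Double and 4, 4 and 0 counts in WT, and osk, zpg, stil and ocn had 3 or fewer counts over all 6 libraries. Others were counted about as often as the piRNA genes. Summed over the libraries, orb had 70 counts in Double and 96 in WT, bol 84 in Double and 119 in WT, and bru1 83 in Double and 68 in WT. Likewise bgcn had 42 counts in Double and 58 in WT, and grk 25 in each genotype. The CPM of the groups overlapped for each of these 5 genes, and the part of germ cells in the piRNA gene values was not tested. The sum of the 17 germline markers was 450.5 to 467.8 CPM in Double and 388.2 to 426.5 CPM in WT, most of it from ovo and CycB3, which discs also express. None of the 17 tested genes among 39 germline, spermatocyte and gonadal soma markers passed edgeR's test, where 1.49% of all tested genes did. So few genes cannot tell a count of 0 from that share. DESeq2 called 1 of the 17, ovo, and 293 of all 8802. At an unadjusted p under 0.05 stood 3 of the 17, ovo, eya and fs(1)Yb, against 12.3% of all tested genes. As stated above, fs(1)Yb reached the count filter through its Double libraries alone. In the germline list ovo had a log2 fold change of 0.24 (SE 0.07; edgeR adjusted p = 0.1631), and Rbp9, next by p in that list, of -0.70 (SE 0.44; edgeR adjusted p = 0.5736). Of 13 spermatocyte markers 10 had fewer than 10 counts in every library, with twe and mia, the tested ones, at 0.36 and -0.18 on the log2 scale (edgeR adjusted p = 0.6344 and 0.6943). Of the 9 gonadal soma markers, one of them fs(1)Yb, eya read 14.8 CPM in Double and 25.6 CPM in WT with overlapping groups (edgeR adjusted p = 0.3362), and tj had 1, 0 and 2 counts in Double and 0, 9 and 8 counts in WT.

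Marker levels of fat body and salivary gland differed widely between the libraries, and no label separates this from the genotype. Whether the amount of carried-over tissue set these levels was not tested. The sum of 10 fat body markers was 13730, 3357 and 8682 CPM in Double replicates 1, 2 and 3 and 274.8, 6925 and 4863 CPM in WT replicates 1, 2 and 3. The sum of 11 salivary gland markers was 1121 to 3302 CPM in Double and 17.99 to 3530 CPM in WT. The smallest p of the salivary list was that of the glue gene Sgs1 (log2 fold change 6.05; edgeR adjusted p = 0.06784), followed by ng3 (2.66; edgeR adjusted p = 0.5626). In the fat body list these were Fbp2 and Lsp1alpha, with log2 fold changes of -3.53 and 2.42 (edgeR adjusted p = 0.3812 and 0.3818). Within WT, replicate 1 had the least fat body signal and the highest piwi and AGO3 values. In Double replicate 2, whose fat body sum was below those of WT replicates 2 and 3, krimp read 7.87 CPM and spn-E 6.51 CPM. This is 1 library and no test of the part of fat body in these values. With the fat body sum as a covariate the log2 fold change of AGO3 moved from 1.95 to 3.17. Those of the other fitted genes were then 1.85 for krimp, -0.98 for spn-E, -2.04 for piwi, 1.69 for vas, -0.35 for qin and 0.38 for zuc. In bulk tissue fewer cells of a type and less RNA per cell cannot be told apart.

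The discs themselves matched their label. All 15 leg disc markers were tested, and their sum was 3215 to 3262 CPM in Double and 3216 to 3270 CPM in WT. Only dac, the leg segment gene dachshund, passed edgeR's test, at 414 CPM in Double and 598 CPM in WT (log2 fold change -0.53, SE 0.06; edgeR adjusted p = 0.003869). The 6 myoblast markers summed to 259.0 to 273.8 CPM in Double and 267.3 to 271.7 CPM in WT, and those of smallest p were zfh1 and twi (edgeR adjusted p = 0.5307 and 0.5725). The 6 haemocyte markers summed to 137.9 to 173.2 CPM in Double and 185.3 to 290.2 CPM in WT. All 6 had negative log2 fold changes, none passed edgeR's test, and NimC1 was the nearest (log2 fold change -0.71, SE 0.18; edgeR adjusted p = 0.1457), followed by He (-0.75, SE 0.32; edgeR adjusted p = 0.3930). At an unadjusted p under 0.05 stood 3 of the 6 haemocyte, 3 of the 15 leg disc and 0 of the 6 myoblast markers, beside 12.3% of all tested genes. Of all tested genes 1.49% passed edgeR's test, and lists this short cannot tell a count of 0 from that share. The part of these tissues in the values of the piRNA genes was not tested, and the covariate held fat body markers alone.

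In somatic cells germline genes are known to be kept off by L(3)mbt, a chromatin protein of the LINT and dREAM complexes, and piRNA pathway genes are among those released when it is lost. All 12 genes of this list were tested, with a median log2 fold change of 0.05. None passed edgeR's test, where 1.49% of all tested genes did, and 12 genes cannot tell a count of 0 from that share. At an unadjusted p under 0.05 stood 1 of the 12, beside 12.3% of all tested genes. l(3)mbt read 96.5 CPM in Double and 80.4 CPM in WT (log2 fold change 0.26, SE 0.08; edgeR adjusted p = 0.2317). Lint-1 had a log2 fold change of 0.16 (SE 0.09; edgeR adjusted p = 0.5269).

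None of the 12 tested genes around krimp and spn-E passed edgeR's test, where 1.49% of all tested genes did. So few genes cannot tell a count of 0 from that share. At an unadjusted p under 0.05 stood 2 of the 12, beside 12.3% of all tested genes. DESeq2 called 1 of the 12, and 293 of all 8802. Of the 10 annotated genes around krimp, 5 on each side, 6 were tested, with log2 fold changes from -0.07 to 0.17. The nearest tested neighbours were CG15701, 4.02 kb away on one side (log2 fold change 0.08, SE 0.50), and fidipidine, 21.56 kb away on the other (0.15, SE 0.08; edgeR adjusted p = 0.4650). CG3687 and CG15708, which flank krimp directly at 0.62 and 0.21 kb, had no count in any library. Neither did CG7786 and CngA reach the filter, with 0 counts over the Double libraries and 1 over the WT libraries for CG7786, and 6, 2 and 4 counts in Double and 0, 1 and 12 counts in WT for CngA. CG15706, Tsf3, csul and Khc had log2 fold changes of -0.07, 0.02, 0.17 and 0.04.

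Around spn-E 6 of 10 genes were tested and none passed. At an unadjusted p under 0.05 stood 2, Hmt-1 and CG31183, beside 12.3% of all tested genes. Pbp45, which lies within the span of spn-E on the opposite strand and shares no exon bases with it, read 9.72 ± 2.08 CPM in Double and 8.34 ± 0.282 CPM in WT (SD, n = 3 each; log2 fold change 0.22, SE 0.19). ND-23, 0.30 kb upstream, and cv-d, 0.05 kb downstream, had log2 fold changes of -0.09 (SE 0.14) and -0.05 (SE 0.43), and Arpc3A and Hmt-1 of 0.02 and 0.19. CG31183, 13.46 kb away, had 40, 33 and 20 counts in Double, against 3, 9 and 4 counts in WT. The log2 difference was 2.44 with an SE of 0.61 (edgeR adjusted p = 0.1227), and DESeq2 called it. Like AGO3, CG31183 reached the count filter through its Double libraries, so this difference carries no weight. CG43318, CG43317 and CG4546 had at most 2 counts in any library, and mir-4911 was not analysed here.

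**Figure D4:**
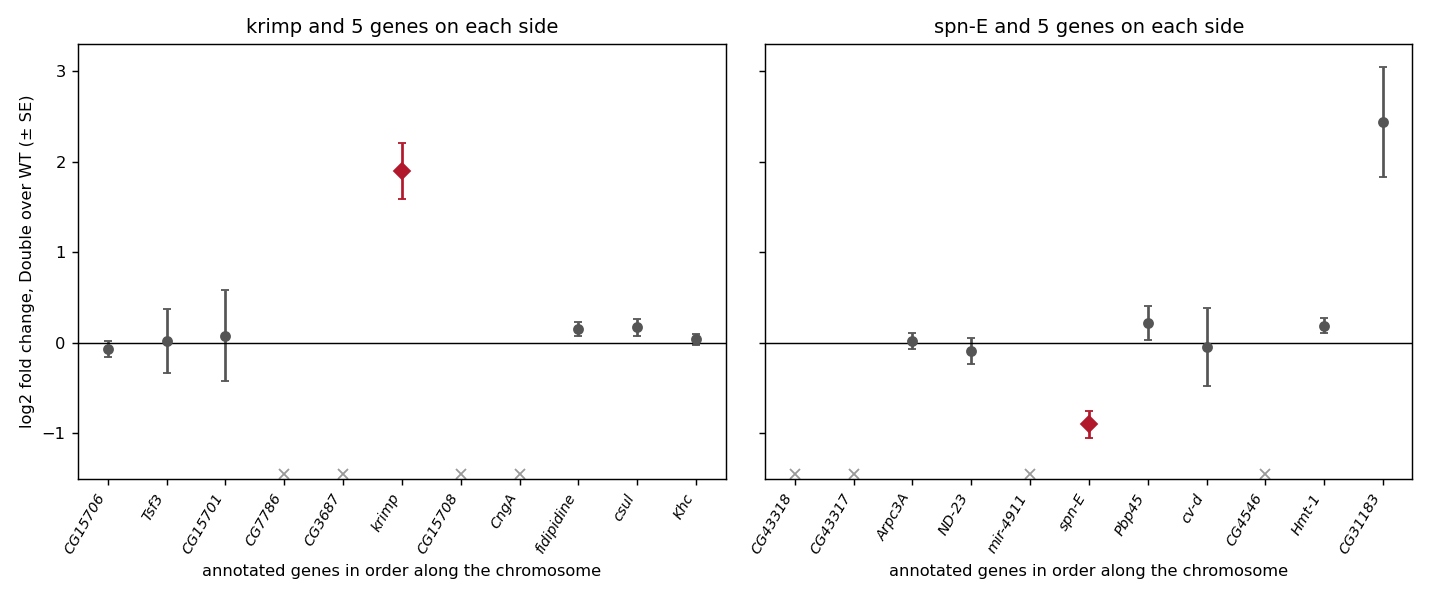
Log2 fold changes (Double over WT, with SE) of krimp, spn-E (red diamonds) and the 5 annotated genes on each side of each (grey points), in order along the chromosome. Crosses at the lower edge mark genes without enough counts to be tested. Next to krimp at 1.90 the tested genes lie between -0.07 and 0.17. Next to spn-E at -0.90 the one large value is CG31183 at 2.44, which reached the count filter through its Double libraries.

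The profiles of krimp and spn-E over the 6 libraries, as log2 CPM centred on the gene's mean, were compared with those of 8085 other genes at an average log2 CPM of at least 1. Both were chosen for a difference between the genotypes, so genes that differ the same way were bound to come closest. Shared regulation was not tested. Closest to krimp was Cpr65Au, a cuticle protein gene, with a root-mean-square difference of 0.13. It read 12.5, 10.5 and 6.86 CPM in Double and 2.73, 3.06 and 2.08 CPM in WT, and like krimp was lowest in replicate 3 of each group. CG5888, the neighbour of dac on 2L, followed at 0.23 and CG5731 at 0.27. Closest to spn-E was syd, which encodes a kinesin adaptor, with a root-mean-square difference of 0.08, at 64.3, 63.7 and 66.1 CPM in Double and 115, 113 and 117 CPM in WT. Cox11, an assembly factor of cytochrome c oxidase, and Obp56a, an odorant-binding protein gene, followed at 0.09 and 0.10.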

How the data were processed

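Poly-A RNA of leg discs was sequenced from strand-specific paired-end libraries, per the labels' protocols. The authors deposited whole-number counts per gene, not normalized. The submitters' processing notes name dm6 as the build and list STAR 2.7.0, HTSeq and DESeq2 without their roles. How strand and shared reads were treated in counting, and with which annotation, is not stated there, and reads of overlapping genes may be mixed or left out.

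Libraries were grouped by title. Of 17612 genes, 17540 matched the Ensembl annotation of BDGP 6.54 (release 115, coordinates of dm6), which gave symbols, positions and exon lengths (union of all exons). Every row names a gene. The 10 genes, the lists and the tests were chosen with earlier results of these data known. The 16 lists hold 184 names, of which 7 were respelled to the annotation and 4 left out as unmatched or duplicate, leaving 178 distinct genes.

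All genes were fitted in edgeR 4.0.16 (R 4.3.3) by its quasi-likelihood test, with TMM factors, filterByExpr by group (minimum count 10), robust dispersions and genotype as the single factor. Calls use a Benjamini-Hochberg adjusted p under 0.05 over all 8802 tested genes. CPM are scaled with TMM factors, and 1 count equals 0.0735 to 0.113 CPM. The spread of genes with few counts holds counting error and other variation, which were not separated. No library duplicated another of its group (pairwise chi-square divided by its degrees of freedom 9.49 to 38.8). The SE is the log2 fold change divided by the square root of F. In data simulated for Double against WT over 8802 genes, with 200 changed in each of 3 runs, 80.3% of 4-fold and 70.3% of 2-fold changes were called, and 7.56% of calls were false. The changed genes were drawn from all tested genes. These shares therefore need not hold for genes with as few counts as the 10.

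Named genes are the 10, from every other list those past the threshold or else the 2 of smallest p, the 5 annotated genes on each side of krimp and spn-E, and the 3 genes whose centred log2 CPM (prior count 2) lay closest to each. Other genes named were chosen after their values were seen. Alternatives were RLE factors, library totals, no count filter, a stricter filter (3 libraries at a CPM of 1 or more), DESeq2 1.42.0, the replicate number as a block, fat body markers as a covariate, and each library left out in turn. Tables and figures were made with Python 3.11.15, pandas 2.3.3, NumPy 2.4.6 and matplotlib 3.10.9.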

Additional observations from a re-analysis of the deposited data

How the results depend on the processing

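The log2 fold changes of spn-E, krimp, piwi, AGO3 and vas kept their direction in all 13 alternatives, from -0.98 to -0.84, 1.74 to 2.10, -2.50 to -2.04, 1.38 to 3.42 and 1.41 to 2.31. This was close to fixed in advance and carries no weight for the direction. krimp and spn-E were chosen for it, and the libraries of the genotypes do not overlap for any of these genes. The log2 fold change of qin kept its direction in 9 and that of zuc in 11 of 13. In the fit with no count filter aub and tej stood at -0.58 (SE 0.72) and 0.81 (SE 0.66). The number of changed genes was 293 with DESeq2, against 131 with edgeR, and 46 to 157 with single libraries left out: 67, 69 and 46 without Double replicates 1, 2 and 3, and 64 without WT replicate 2, fits with fewer libraries. DESeq2 called 1 gene of the siRNA and miRNA machinery (AGO2), 1 germline or gonad marker (ovo) and 1 neighbour of spn-E (CG31183), where edgeR called 0; the cause was not tested. No other piRNA pathway gene was called in any of the 13. Same-numbered libraries did not pair (correlations of deviations -0.07, -0.25 and 0.39, with replicate 3 alone correlating best within its number). With the replicate block 166 genes had changed, and 1 germline or gonad marker, eya, was called lower. For aub, vas, tej, qin and AGO3, at 26 or fewer counts in each library, moderate differences were not detectable.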
